A study of Mus musculus with 6 samples.

Results

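The genes described here serve lysosomes and autophagy, the routes by which a cell takes apart its own proteins, lipids and organelles. They are 32 genes picked by symbol: 13 lysosomal hydrolases, 4 genes of the lysosomal membrane and of lipid export, the regulator Tfeb, the cargo receptor Sqstm1 and 13 genes of the autophagy machinery. Each was read from the brightest of its probe sets that carry its symbol alone, and all 32 were measured, among 18193 genes with such a probe set. The cells were LSK cells of mouse bone marrow (lineage-depleted, then sorted as Sca-1-positive and c-Kit-positive), which include the blood stem cells and the progenitors nearest to them. The 3 Ercc1-deficient samples carried 1 knockout and 1 truncated allele of Ercc1 (-/d), which encodes a subunit of a DNA repair endonuclease. The 3 Ercc1-proficient samples were litter mates, wild type (+/+) in litters 1 and 2 and heterozygous for the truncated allele (+/d) in litter 3. All were F1 mice of C57BL/6 and FVB/n parents, aged 22 weeks in litter 1 and 20 weeks in litters 2 and 3. Whether 1 mouse or several gave the cells of an array is not stated in the labels. The labels name no promoter or Cre that would confine the alleles to LSK cells. The comparison asks how expression in LSK cells differs, within litters, when Ercc1 function is reduced.

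Lysosomes are acidic compartments whose enzymes cut proteins, sugars and lipids, and autophagy delivers parts of the cytoplasm to them in a double membrane. That membrane starts under the kinase Ulk1 and a lipid kinase complex built on Becn1, and it grows as small proteins of the ATG8 family are joined to lipid by Atg7, Atg3 and a complex of Atg12, Atg5 and Atg16l1. The transcription factor Tfeb switches many of these genes on together by binding an E-box in their promoters. In mouse blood stem cells autophagy clears mitochondria, and deletion of Atg7 is known to deplete these cells.

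The E-box CACGTG, a palindrome that Tfeb and several other factors bind, was searched in RefSeq promoter windows running from 250 bases before to 50 bases after each annotated start (build GRCm38.p6). Of the 32 genes 26 had a window, some with more than 1 start, and the 6 without one were Ctsb, Npc1, Map1lc3a, Atg12, Atg16l1 and Becn1. The motif stood in 9 of the 26, namely Ctsa, Ctsd, Ctsl, Gaa, Gla, Lamp1, Atg3, Atg5 and Atg7, while 8.09% of all 27025 genes with a window held it. The longer form TCACGTG, which always overlaps the first and was searched on both strands, stood in 7 of the 26, in which Ctsl and Atg5 were lacking, and in 4.29% of all genes. The match is a description of these letters and not of binding. The bases before the start are printed 5′ to 3′ for 4 genes that hold more than 1 E-box, with the E-boxes in capitals. They are also printed for Ulk1 and Gabarapl1, whose windows held no E-box and which were among the genes with the smallest p between genotypes. Ctsl and Map1lc3a were among those with the smallest p as well. Of these, Ctsl held the E-box and Map1lc3a had no window.
Lamp1 (chr8:13158911-13159160, plus strand): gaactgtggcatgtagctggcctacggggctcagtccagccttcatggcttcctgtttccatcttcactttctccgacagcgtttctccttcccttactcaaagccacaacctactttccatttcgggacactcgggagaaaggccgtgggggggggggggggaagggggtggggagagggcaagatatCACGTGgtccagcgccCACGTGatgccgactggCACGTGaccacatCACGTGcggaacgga
Gla (chrX:134601006-134601255, minus strand): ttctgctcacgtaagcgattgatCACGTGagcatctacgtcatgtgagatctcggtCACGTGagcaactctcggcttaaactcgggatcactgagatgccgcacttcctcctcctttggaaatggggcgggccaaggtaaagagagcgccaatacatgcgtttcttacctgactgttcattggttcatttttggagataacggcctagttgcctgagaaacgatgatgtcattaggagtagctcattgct
Ctsd (chr7:142387828-142388077, minus strand): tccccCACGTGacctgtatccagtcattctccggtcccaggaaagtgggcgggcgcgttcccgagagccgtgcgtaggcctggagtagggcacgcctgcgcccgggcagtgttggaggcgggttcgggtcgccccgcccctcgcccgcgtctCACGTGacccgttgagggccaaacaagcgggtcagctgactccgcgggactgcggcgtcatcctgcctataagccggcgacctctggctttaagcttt
Atg3 (chr16:45158579-45158828, plus strand): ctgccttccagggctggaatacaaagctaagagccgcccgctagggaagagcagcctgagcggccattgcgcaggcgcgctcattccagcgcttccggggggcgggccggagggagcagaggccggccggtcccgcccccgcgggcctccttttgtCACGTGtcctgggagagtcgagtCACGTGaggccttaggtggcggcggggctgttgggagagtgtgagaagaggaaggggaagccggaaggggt
Ulk1 (chr5:110810082-110810331, minus strand): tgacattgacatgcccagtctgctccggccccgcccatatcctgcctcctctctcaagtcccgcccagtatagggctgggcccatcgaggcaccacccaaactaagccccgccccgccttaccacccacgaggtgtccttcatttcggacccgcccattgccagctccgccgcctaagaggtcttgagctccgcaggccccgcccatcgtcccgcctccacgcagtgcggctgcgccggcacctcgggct
Gabarapl1 (chr6:129532942-129533191, plus strand): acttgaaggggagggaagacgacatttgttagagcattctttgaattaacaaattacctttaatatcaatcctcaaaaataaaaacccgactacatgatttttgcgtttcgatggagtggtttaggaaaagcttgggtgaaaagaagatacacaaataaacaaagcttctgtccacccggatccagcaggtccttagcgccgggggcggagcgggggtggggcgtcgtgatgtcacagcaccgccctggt
In Lamp1 the 4 motifs began 61, 45, 28 and 15 bases before the start. In Gla they began 227 and 194 bases before it, in Ctsd 245 and 98, and in Atg3 94 and 71. The 9 genes with the E-box had log2 differences between genotypes from -0.54 to 0.36 with a median of 0.081, and 3 of them had negative values. The 17 genes with a window and no E-box ranged from -0.67 to 0.46 with a median of -0.017, and 9 had negative values.

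Signals are MAS5 intensities on a linear scale with a floor of 30, and between 52.3% and 58.6% of the probe sets on an array lay at that floor. The number of arrays, 3 per group, limits the precision of every comparison. Ercc1 itself had signals of 79.9, 34.5 and 44.9 in Ercc1-deficient cells, against 128, 244 and 176 in Ercc1-proficient cells (log2 difference -1.36, standard error 0.27, adjusted p = 0.0138, limma with litter as a block). The labels do not place this probe set against the altered sequence. The 3′ to 5′ signal ratio of the Gapdh control probe sets, a sign of how far amplified RNA is shortened, was 26.2, 5.40 and 4.92 in Ercc1-deficient arrays of litters 1, 2 and 3 and 12.5, 7.92 and 6.62 in Ercc1-proficient arrays, so both arrays of litter 1 had the highest values. The same ratio of Actb was 31.4, 19.3 and 9.83 in Ercc1-deficient arrays and 16.6, 21.6 and 13 in Ercc1-proficient arrays. Values of 3 samples are given below in the order of litters 1, 2 and 3.

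None of the 32 genes passed the test. In bulk samples of sorted cells such as these, fewer cells of a type and less RNA per cell cannot be told apart. In the fit across 22519 probe sets, with litter as a block, limma called 0.835% of them at an adjusted p under 0.05 (188, of which 71 were higher in Ercc1-deficient cells), and 0 of the 32. With arrays centred on their medians the split over all probe sets was 193 higher of 332 called, and the count among the 32 was again 0. Without a litter term limma called 0% of the probe sets. At an unadjusted p under 0.05 with the block, 4 of the 32 genes stood out, all with lower signals in Ercc1-deficient cells: Ulk1, Map1lc3a, Gabarapl1 and Ctsl. That is 12.5% of the genes, beside 11.5% of all probe sets in either direction and 7.33% of all probe sets with lower signals. No gene had a higher signal at that p in the probe set used, beside 4.12% of all probe sets. Unused probe sets of Lamp2, Ctsz and Atg12 did, with log2 differences of 0.67, 0.59 and 0.44 (unadjusted p = 0.0075, 0.020 and 0.027, limma). Unused probe sets of Map1lc3b and Gabarapl1 had lower signals at that p, with -0.59 and -0.53 (unadjusted p = 0.019 and 0.021, limma). Without a litter term the unadjusted count was 1 of the 32, Ulk1, beside 2.57% of all probe sets.

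The log2 difference, Ercc1-deficient minus Ercc1-proficient, was positive for 16 genes and negative for 16, with a median of -0.0048, against -0.029 over all probe sets tested; with arrays centred on their medians 20 were positive and the median was 0.086, against 0.062 over all probe sets. The values ran from -0.67 for Ulk1 to 0.46 for Lamp2. The 95% interval of a gene reached, in the median, 0.48 to either side, which is 1.39-fold on the scale of log2(signal + 30). Of the 32 intervals 28 lay within 1 log2 unit of 0. Their widths come largely from a variance that limma pools over probe sets, and less from a gene's own litters. Signals were lower in Ercc1-deficient cells in all 3 litters for 5 genes (15.6%, against 17% of all probe sets) and higher in all 3 for 3 genes (9.38%, against 11.3%). The groups did not overlap for Ulk1 and Ctsl, both lower in Ercc1-deficient cells, which is 6.25% of the genes against 4.89% of all probe sets, and for no gene did all deficient arrays lie above all proficient arrays, against 2.3%.

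**Figure D1:**
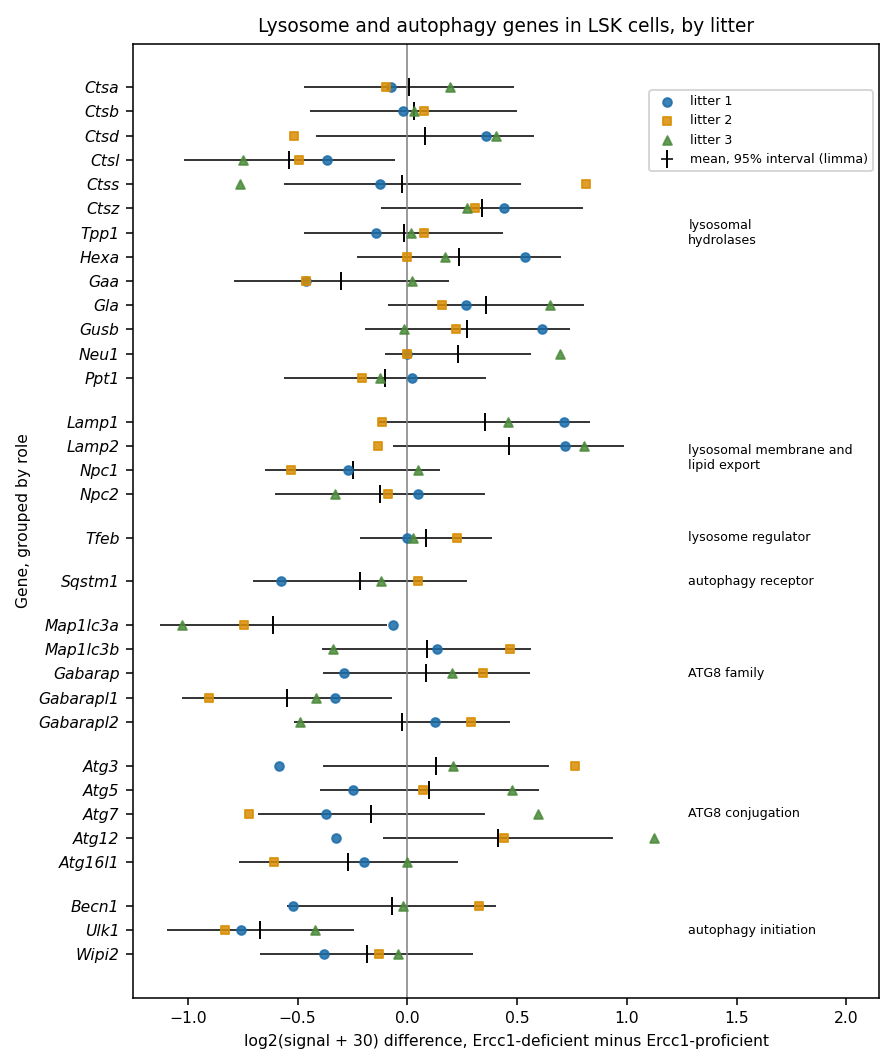
Log2(signal + 30) differences, Ercc1-deficient minus Ercc1-proficient litter mates, for 32 lysosome and autophagy genes grouped by role. Coloured points are the 3 litters, black ticks the mean over litters and lines the 95% interval of limma with litter as a block; 4 intervals, those of Ctsl, Map1lc3a, Gabarapl1 and Ulk1, lie wholly below 0 and none lies above it.

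Among the lysosomal proteases, the cysteine endopeptidase gene Ctsl was the one with the smallest p. Its signals were 133, 131 and 127 in Ercc1-deficient cells, against 180.1, 197 and 233 in Ercc1-proficient cells. All 3 Ercc1-deficient arrays lay below all 3 Ercc1-proficient arrays, and the difference did not pass over all probe sets (log2 difference -0.54, standard error 0.23, adjusted p = 0.365). A second Ctsl probe set was at the floor on all 6 arrays and measures nothing here.

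Ctsz, a cysteine carboxypeptidase, had signals of 160.0, 343 and 518 in Ercc1-deficient cells, against 110.1, 271 and 424 in Ercc1-proficient cells. The deficient array was higher in each litter, but the level in litter 1 was well under that in the others in both genotypes, so the groups overlapped (log2 difference 0.34, standard error 0.22, adjusted p = 0.601). Its other 2 probe sets gave log2 differences of 0.59 and 0.44 (adjusted p = 0.323 and 0.484, limma). The suffix of the first marks probes shared between transcripts, and that of the second marks probes that can match other genes.

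The remaining proteases had mean log2 differences near 0, in some because litters ran in opposite directions. Ctsb, a cysteine protease of broad specificity, had signals of 136, 185 and 226 in Ercc1-deficient cells, against 138, 174 and 221 in Ercc1-proficient cells. Litter mates were nearly equal in each litter (log2 difference 0.030, 95% interval -0.44 to 0.50). Ctsd, the main aspartic protease of the lysosome, had signals of 199, 270.2 and 299 in Ercc1-deficient cells, against 149, 399.9 and 219 in Ercc1-proficient cells. The deficient array was higher in litters 1 and 3 and lower in litter 2 (log2 difference 0.081, 95% interval -0.42 to 0.58). Ctss, which trims the invariant chain in antigen-presenting cells, had signals of 785, 1855 and 1073 in Ercc1-deficient cells, against 858, 1041 and 1842 in Ercc1-proficient cells. It was higher in the deficient array in litter 2, lower in litter 3 and close to its litter mate in litter 1 (log2 difference -0.024, 95% interval -0.56 to 0.52). Ctsa, a carboxypeptidase that also shields the sialidase Neu1 from breakdown, had a log2 difference of 0.0075 (95% interval -0.47 to 0.48), and Tpp1, a tripeptidyl peptidase, one of -0.017 (95% interval -0.47 to 0.44).

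Of the 5 sugar-cleaving hydrolases 4 had a positive log2 difference, and none was called. Gla, the alpha-galactosidase deficient in Fabry disease, had signals of 42.2, 77.7 and 122 in Ercc1-deficient cells, against 30, 66.6 and 66.7 in Ercc1-proficient cells. Within each litter the deficient array was higher, while 1 proficient array was at the floor and the groups overlapped (log2 difference 0.36, standard error 0.21, adjusted p = 0.561). Hexa, the alpha subunit of beta-hexosaminidase, had signals of 614, 1354 and 1309 in Ercc1-deficient cells, against 414, 1354 and 1159 in Ercc1-proficient cells. Litter mates were equal to within 1 unit of signal in litter 2 (log2 difference 0.24, 95% interval -0.23 to 0.70). Gusb, beta-glucuronidase, had signals of 349, 337 and 438 in Ercc1-deficient cells, against 218, 284 and 443 in Ercc1-proficient cells. The gap was widest in litter 1, and litter 3 ran slightly the other way (log2 difference 0.27, 95% interval -0.19 to 0.74). Gaa, the enzyme that breaks down glycogen in lysosomes, had signals of 70.7, 187 and 151 in Ercc1-deficient cells, against 109, 269 and 148 in Ercc1-proficient cells. It was lower in the deficient array of litters 1 and 2 and about equal in litter 3 (log2 difference -0.30, 95% interval -0.79 to 0.19), and its probe set carries a suffix for probes that can also match other genes. The sialidase gene Neu1 was at the floor on 5 of 6 arrays and had a signal of 67.1 in the deficient array of litter 3, so its positive value rests on that array. Ppt1, a thioesterase that strips fatty acids from proteins, had a log2 difference of -0.10 (95% interval -0.56 to 0.36).

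Lamp2, a major glycoprotein of the lysosomal membrane that also takes part in chaperone-mediated autophagy, had the largest positive difference of the 32. The suffix of its probe set, as of those used for Gabarapl1, Atg5 and Becn1, marks probes shared between transcripts. The signals of Lamp2 were 3423, 4161 and 3498 in Ercc1-deficient cells, against 2069, 4572 and 1989 in Ercc1-proficient cells. The deficient array was higher in litters 1 and 3 and lower in litter 2 (log2 difference 0.46, standard error 0.25, adjusted p = 0.513). Its 3 other probe sets also had positive differences, of 0.37, 0.32 and 0.67, the last at an adjusted p of 0.223 (limma, with the litter block). The related Lamp1 had signals of 1865, 836 and 1192 in Ercc1-deficient cells, against 1126, 907 and 858 in Ercc1-proficient cells. It followed the same order as Lamp2, higher in the deficient array of litters 1 and 3 and slightly lower in litter 2 (log2 difference 0.35, standard error 0.23, adjusted p = 0.604).

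Npc1 and Npc2 hand cholesterol out of the lysosome, Npc2 as a soluble carrier and Npc1 in the membrane. Npc2 had signals of 1067, 3031 and 2429.7 in Ercc1-deficient cells, against 1031, 3227 and 3058 in Ercc1-proficient cells. Both arrays of litter 1 were well below the other 4, and litter mates differed by less than that (log2 difference -0.12, 95% interval -0.60 to 0.36). Npc1 was weak, with signals of 32.1, 45.4 and 54.8 in Ercc1-deficient cells, against 44.8, 78.9 and 51.9 in Ercc1-proficient cells (log2 difference -0.25, 95% interval -0.65 to 0.15). Tfeb was at or near the floor, with signals of 30, 51.1 and 31 in Ercc1-deficient cells, against 30, 39.3 and 30 in Ercc1-proficient cells, and 3 of its 6 values were exactly 30, so a difference in Tfeb was not detectable on these arrays. Sqstm1, the receptor that ties ubiquitin-tagged cargo to the growing membrane, had signals of 59.1, 64.4 and 107 in Ercc1-deficient cells, against 103, 61.3 and 119 in Ercc1-proficient cells. The deficient array was lower mainly in litter 1 (log2 difference -0.22, 95% interval -0.70 to 0.27).

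The ATG8 family splits into LC3 proteins, which serve mainly in growth of the autophagic membrane, and GABARAP proteins, which also recruit the Ulk1 kinase. Gabarapl1 had signals of 289.9, 92.8 and 169 in Ercc1-deficient cells, against 372, 199 and 236 in Ercc1-proficient cells. Within each litter the deficient array was lower, and the groups overlapped, with litter 1 brighter in both genotypes (log2 difference -0.55, standard error 0.23, adjusted p = 0.352). A second Gabarapl1 probe set gave a log2 difference of -0.53 (adjusted p = 0.331, limma).

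Map1lc3a, an LC3 gene, had signals of 63.4, 149.5 and 83.9 in Ercc1-deficient cells, against 67.6, 271 and 202 in Ercc1-proficient cells. Both genotypes were close together in litter 1, and the deficient array was lower in litters 2 and 3 (log2 difference -0.61, standard error 0.25, adjusted p = 0.337). This probe set carries the suffix for probes that can match other genes, and the other Map1lc3a probe set was near the floor, with means of 34.1 in Ercc1-deficient and 32.8 in Ercc1-proficient cells and a log2 difference of 0.025. The value of Map1lc3a is therefore uncertain.

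Map1lc3b, the LC3 gene most often used to follow autophagy, had signals of 535, 1862 and 946 in Ercc1-deficient cells, against 484, 1339.9 and 1204 in Ercc1-proficient cells (log2 difference 0.088, 95% interval -0.39 to 0.56). Its probe sets disagreed: a second bright one had a log2 difference of -0.45 (adjusted p = 0.447, limma) and another one of -0.59 (adjusted p = 0.319, limma). No direction is given for this gene. Gabarap had signals of 93.7, 542 and 465 in Ercc1-deficient cells, against 121, 420.3 and 399.8 in Ercc1-proficient cells. Litter 1 was far below the other litters in both genotypes, and the log2 difference between genotypes was 0.087 (95% interval -0.39 to 0.56). Gabarapl2 had a log2 difference of -0.024 (95% interval -0.52 to 0.47).

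The genes that attach ATG8 proteins to lipid showed no common direction. Atg12, the ubiquitin-like partner of Atg5, had signals of 316, 229.5 and 638 in Ercc1-deficient cells, against 404, 161 and 277 in Ercc1-proficient cells. The deficient array was lower in litter 1 and higher in litters 2 and 3, most so in litter 3 (log2 difference 0.41, standard error 0.25, adjusted p = 0.571). Atg3, the conjugating enzyme, had signals of 313, 432 and 352 in Ercc1-deficient cells, against 485, 243 and 301 in Ercc1-proficient cells. It too was lower in the deficient array of litter 1 and higher in the others (log2 difference 0.13, 95% interval -0.39 to 0.64). Atg7, the activating enzyme, had signals of 78.6, 57.6 and 60.8 in Ercc1-deficient cells, against 111, 114 and 30 in Ercc1-proficient cells. Its proficient array of litter 3 was at the floor (log2 difference -0.17, 95% interval -0.68 to 0.35), and a dimmer Atg7 probe set had a difference of 0.29. Atg5 had a log2 difference of 0.10 (95% interval -0.40 to 0.60), and Atg16l1, which sets where conjugation occurs, one of -0.27 (95% interval -0.77 to 0.23).

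Of the genes that start autophagy, Ulk1 had the smallest p of all 32. Its signals were 35.8, 41.2 and 42.2 in Ercc1-deficient cells, against 81.2, 96.6 and 66.7 in Ercc1-proficient cells. The 3 deficient arrays lay within 13 units of the floor and below every proficient array, and the groups did not overlap (log2 difference -0.67, standard error 0.20, adjusted p = 0.156). Its second probe set was at the floor on all 6 arrays. Wipi2, which binds the lipid made by the Becn1 complex and brings in Atg16l1, had signals of 76.9, 161 and 151 in Ercc1-deficient cells, against 109, 179 and 156 in Ercc1-proficient cells. Litter mates stood in the same order in each litter, with the deficient array lower, by little in litter 3 (log2 difference -0.19, standard error 0.23, adjusted p = 0.790). Becn1 had signals of 604, 549.8 and 857 in Ercc1-deficient cells, against 879.5, 433 and 870.3 in Ercc1-proficient cells. The order of litter mates differed by litter (log2 difference -0.072, 95% interval -0.55 to 0.40), and 3 other Becn1 probe sets had log2 differences of 0.22, 0.33 and 0.45, so its direction also depends on the probe set.

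**Figure D2:**
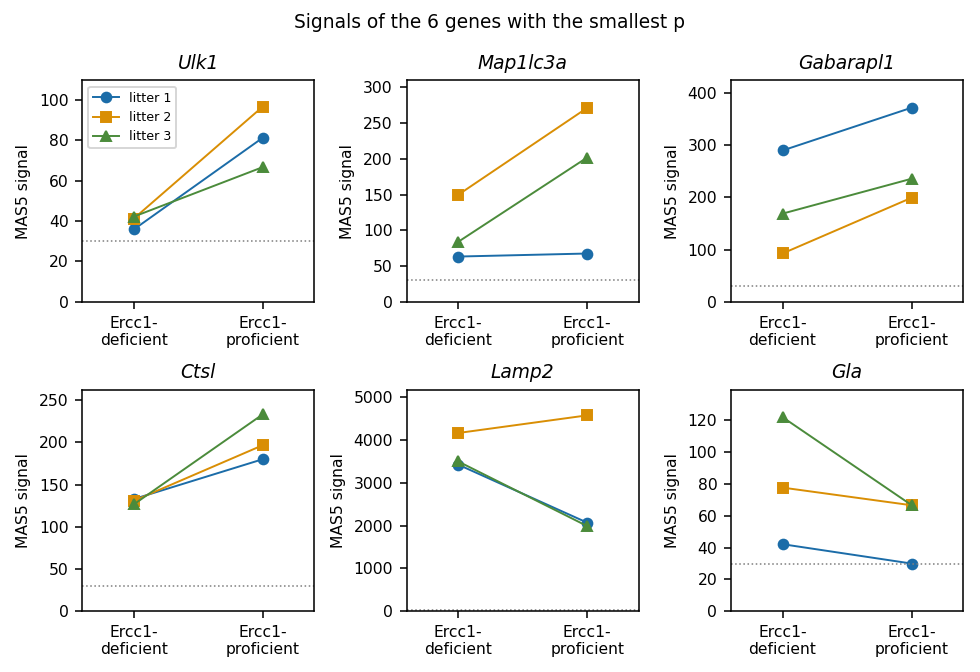
MAS5 signals of the 6 genes with the smallest p between genotypes, Ercc1-deficient arrays on the left and Ercc1-proficient arrays on the right of each panel. Lines join litter mates and the dotted line is the floor of 30; for Ulk1 and Ctsl all deficient arrays lie below all proficient arrays, whereas for Lamp2 litter 2 runs against litters 1 and 3.

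Hydrolases and autophagy machinery were then set against each other within litters. The hydrolases had a median log2 difference of 0.030, with 8 of 13 positive, and the 13 autophagy machinery genes one of -0.072, with 5 of 13 positive. When arrays were centred on their medians, the hydrolase median was 0.12 with 10 of 13 positive and the autophagy median 0.019 with 7 of 13 positive; the difference of the list means is not moved by this centring. As deposited, the median over all probe sets was -0.029, and 54% of the probe sets had negative values. Under median centring the median over all probe sets was 0.062, and 40.9% had negative values. The mean of the hydrolases was 0.081, -0.0091 and 0.062 in litters 1, 2 and 3, and that of the autophagy machinery -0.29, -0.095 and -0.011. Hydrolases minus autophagy machinery was 0.37, 0.086 and 0.073 in litters 1, 2 and 3, a mean of 0.18 ± 0.17 (SD, n = 3 litters), so the contrast was about as large as its spread between litters. Litter 1 carried most of it, with 11 of 13 autophagy genes lower in the deficient array, and without that litter the contrast was 0.079. In litter 1 the Gapdh 3′ to 5′ ratio was also higher in the deficient array, at 26.2 against 12.5, whereas in litters 2 and 3 it was lower, and its part in the contrast was not tested. The genes of a list are not replicates, and no p was computed for this contrast.

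**Figure D3:**
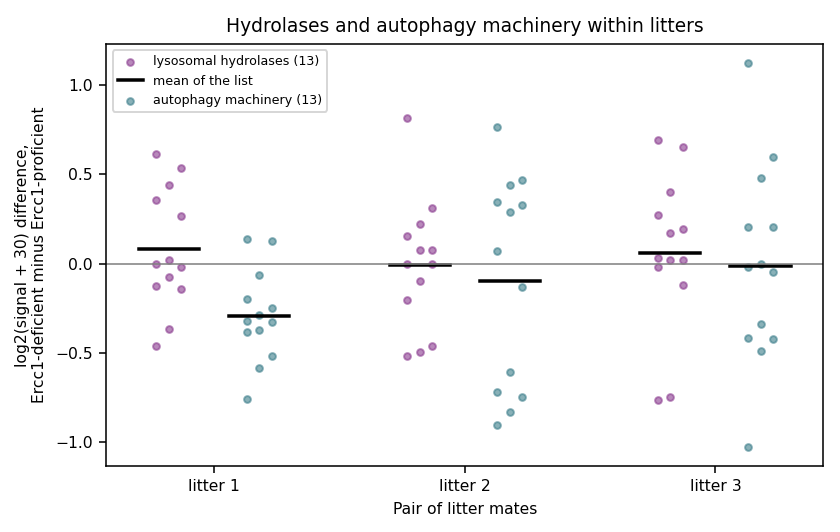
Log2(signal + 30) differences, Ercc1-deficient minus Ercc1-proficient, of 13 lysosomal hydrolases and 13 autophagy machinery genes in each pair of litter mates. Points are genes and black bars the list mean; the bars stand 0.37 apart in litter 1 and under 0.1 apart in litters 2 and 3.

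Litters were compared in the same fit, where 10 of the 32 genes (31.3%) had a litter effect with an adjusted p under 0.05 in limma, against 27.1% of all probe sets. The p for litter tests any difference among the litters, not litter 1 against the others. Litter 1 was lower than the mean of litters 2 and 3 for 25 of the 32 genes and for 12 of the 13 hydrolases, whereas 50.1% of all probe sets were lower there. The log2 difference of litter 1 from the mean of the other litters was -1.82 for Gabarap (adjusted p = 3.3e-05 for litter, limma), -1.45 for Npc2 (adjusted p = 0.000415), -1.33 for Ctsz (adjusted p = 0.000371) and -1.30 for Hexa (adjusted p = 0.000907). For Gabarapl1 it was positive, at 0.87 (adjusted p = 0.0166). Litter 1 was the older litter and had the highest Gapdh 3′ to 5′ ratios, so litter, age and RNA quality cannot be told apart. For Actb that ratio was highest in the deficient array of litter 1, at 31.4. In the proficient array of litter 1 it was 16.6, below 19.3 and 21.6 in the arrays of litter 2. The litter test was added after the data were seen.

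**Figure D4:**
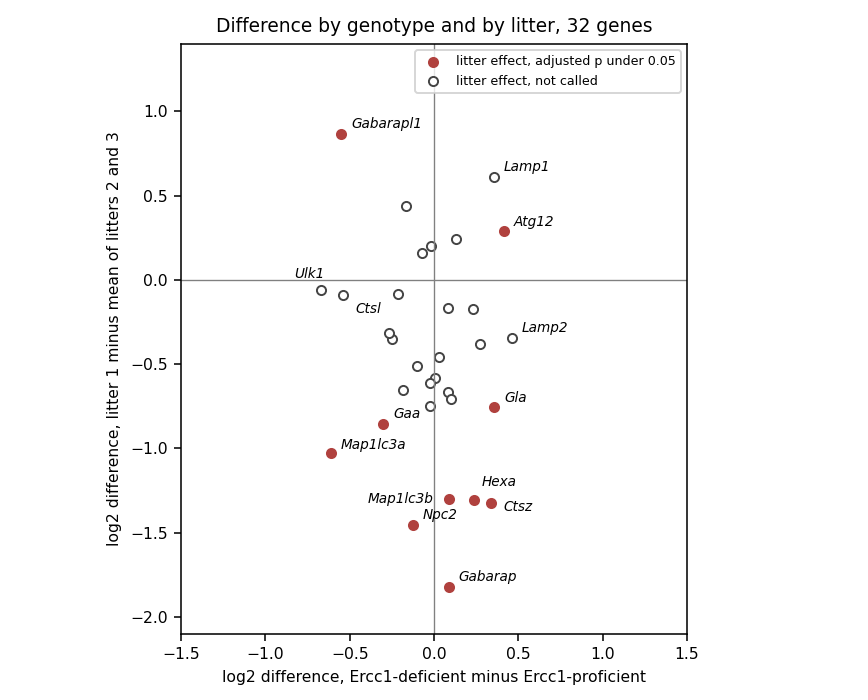
For each of 32 genes, the log2(signal + 30) difference between genotypes (horizontal, Ercc1-deficient minus Ercc1-proficient) and the difference of litter 1 from the mean of litters 2 and 3 (vertical). Filled points have a litter effect with an adjusted p under 0.05 in limma; they reach down to -1.82 for Gabarap, while values between genotypes stay between -0.67 and 0.46.

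Further genes of the same pathways were grouped in 6 lists. Of their 118 genes 109 were measured and 101 were above the filter on mean signal, and 0 passed with litter as a block in limma. In that fit 10 of the 101 had an unadjusted p under 0.05, a share no higher than the 11.5% of all probe sets. The groups did not overlap for 5 of the 101 with lower signals in Ercc1-deficient cells and for 2 with higher signals. The shares of all probe sets were 4.89% and 2.3%. With arrays centred on their medians 1 of the 101 passed, Arsb, at an adjusted p of 0.0497 (limma). That centring also moved the median over all probe sets from -0.029 to 0.062 and their share of negative values from 54% to 40.9%.

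Of the other hydrolases and their activators 26 of 34 were tested, 15 of them with a negative difference, and the median was -0.089, which became 0.0013 with 12 negative under median centring. Arsb, a sulfatase that acts on dermatan sulfate, had signals of 306, 236 and 478 in Ercc1-deficient cells, against 163, 158 and 236 in Ercc1-proficient cells. Each litter had its higher value in the deficient array, and the groups stood apart by under 1 unit of signal (log2 difference 0.75, standard error 0.23, adjusted p = 0.150). Dnase2a, the endonuclease that digests DNA in lysosomes, had signals of 252, 272 and 145 in Ercc1-deficient cells, against 381, 337 and 329.7 in Ercc1-proficient cells. All deficient arrays lay below all proficient ones (log2 difference -0.62, standard error 0.23, adjusted p = 0.280). The Dnase2a probe set carries the suffix for probes that can match other genes. Scpep1, a carboxypeptidase, and Sgsh, a sulfatase of heparan sulfate, had log2 differences of -0.34 and -0.28, and Ctsf, Ctsk and Lgmn were at the floor on all arrays.

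In the lysosomal membrane, 12 of 14 other genes were tested and 7 had negative differences, with a median of -0.11, or -0.022 under median centring. Mcoln1, a calcium channel of the lysosome, had signals of 58.7, 82 and 54.6 in Ercc1-deficient cells, against 97.5, 117 and 88.6 in Ercc1-proficient cells, without overlap (log2 difference -0.47, standard error 0.23, adjusted p = 0.443). Scarb2, the sorting receptor of glucocerebrosidase, also had no overlap, with a log2 difference of -0.31 (adjusted p = 0.642, limma). Laptm4b and Ostm1 had differences of -0.29 and 0.29.

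The proton pump of the lysosome, the V-ATPase, had 15 of 16 subunits tested and 9 with positive differences, with a median of 0.054, or 0.14 with 11 positive under median centring. Its accessory subunit Atp6ap2 had signals of 2312, 7003 and 4243 in Ercc1-deficient cells, against 1412, 3646 and 2624 in Ercc1-proficient cells. In every litter the deficient array was the brighter one (log2 difference 0.77, standard error 0.24, adjusted p = 0.158). The Atp6ap2 probe set carries the suffix for probes that can match other genes. The subunit Atp6v1c1 had a difference of 0.51 (adjusted p = 0.400, limma), Atp6v1b2 one of -0.42 and Atp6v0a2 one of -0.20. Among genes that sort enzymes to the lysosome 5 of 6 were tested, with a median of 0.18; Gnptab, Nagpa, M6pr and Igf2r had differences of 0.40, 0.23, 0.18 and -0.34. The relatives and upstream regulators of Tfeb had a median of 0.0013 over 6 of 7 genes tested, or 0.092 under median centring, and Tfe3, Tfec, Mitf and Rragc had differences of -0.011, 0.23, 0.26 and -0.15.

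The other autophagy genes were the list with the most negative values. Of 41 genes 37 were tested, 27 of them (73%) with negative differences against 54% of all probe sets, and the median was -0.19. Under median centring 23 of the 37 were negative, against 40.9% of all probe sets. The median was then -0.096, against 0.062 over all probe sets. No gene was called, and 6 of the 37 had an unadjusted p under 0.05, all negative, beside 7.33% of all probe sets with lower signals and 11.5% in either direction. Tecpr1, a tether between autophagosomes and lysosomes, had signals of 39.5, 72.7 and 30.1 in Ercc1-deficient cells, against 62.9, 147 and 61.3 in Ercc1-proficient cells. In every litter the deficient array was the dimmer one (log2 difference -0.60, standard error 0.21, adjusted p = 0.242). Vps33a, a subunit of the complex that fuses membranes with the lysosome, had signals of 62.5, 36.6 and 69.8 in Ercc1-deficient cells, against 108, 88.2 and 87.9 in Ercc1-proficient cells, without overlap (log2 difference -0.55, standard error 0.23, adjusted p = 0.346). Stx17, which drives that fusion, had a difference of -0.63 (adjusted p = 0.333, limma) and Ulk2, the paralog of Ulk1, one of -0.58 (adjusted p = 0.356, limma).

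**Figure D5:**
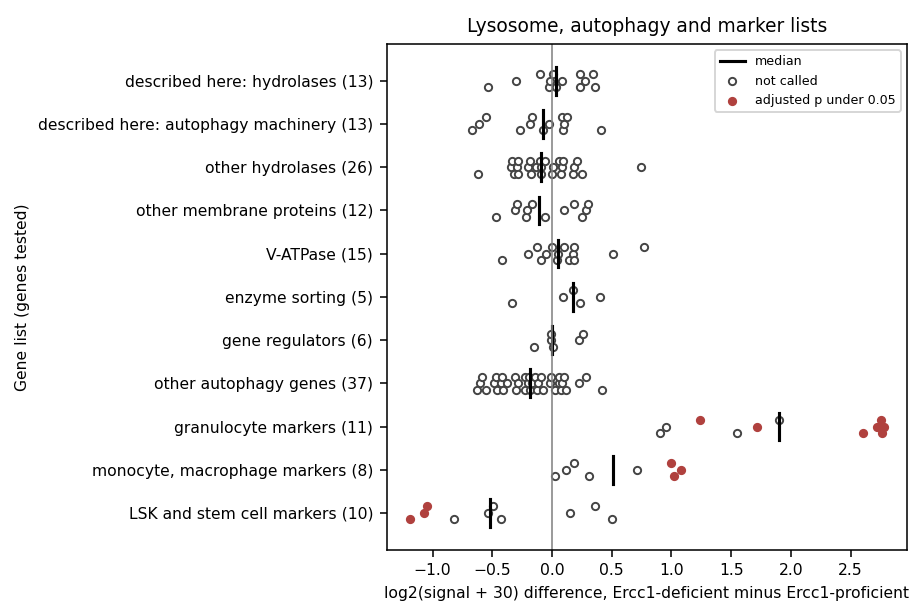
Log2(signal + 30) differences, Ercc1-deficient minus Ercc1-proficient, of the genes tested in each list, with the list median as a black bar. Filled points passed at an adjusted p under 0.05 in limma with litter as a block; they appear among granulocyte, monocyte and stem cell markers, and there are 0 among lysosome and autophagy genes.

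Some cell type markers moved with genotype on the same arrays, those of the sorted LSK cells included. In the granulocyte list all 11 tested markers had positive differences and 7 rose. Among the 4 brightest, S100a8, S100a9 and Ctsg rose, with log2 differences of 2.60, 2.76 and 1.72, and Mpo, at 0.95, was not called (adjusted p = 0.135, limma). The summed signal of the 13 measured genes of the list ranged from 18484 to 115966 in Ercc1-deficient arrays and from 4020.3 to 36285 in Ercc1-proficient arrays, with Itgam and Mmp8 at the floor on all 6. Ctsg, a serine protease stored in the granules of myeloid cells, had signals of 3107, 8849 and 7677 in Ercc1-deficient cells, against 332, 3665 and 4455 in Ercc1-proficient cells (log2 difference 1.72, standard error 0.32, adjusted p = 0.00852). Its 95% interval, 1.06 to 2.38, lay above those of Ctsa, Ctsb, Ctsd, Ctsl, Ctss and Ctsz, of which the highest reached 0.80, and the difference between genes was not tested. In the monocyte and macrophage list 3 of 8 tested markers rose, among them F13a1 and Ccr2 at 1.08 and 1.02, while Lyz2 and Csf1r, also among the 4 brightest, at 0.72 and 0.027, were not called. Its summed signals were 1328 to 4692 in Ercc1-deficient and 909 to 2414 in Ercc1-proficient arrays, and Cd14, C1qa, C1qc and Ms4a7 were at the floor on all arrays. In the LSK and stem cell list 3 of 10 fell, Flt3, Procr and Hlf (1 of 10 with quantile normalization), and 3 had positive differences, Gata2 (0.50, without overlap, adjusted p = 0.389, limma), Slamf1 (0.36) and Mecom (0.15). Mecom, Cd34, Tal1 and Meis1 were the brightest, and the last 3 had differences of -0.50, -0.43 and -0.82 and were not called. The list had summed signals of 3925 to 8567 in Ercc1-deficient and 5318 to 9329.5 in Ercc1-proficient arrays. Of the B and T cell and the erythroid markers none of 5 and none of 3 tested were called: Cd79b, Cd8a, Cd3e and Ms4a1 had differences of 0.043, 0.37, 0.33 and -0.024, and Tfrc, Klf1 and Epor of 0.19, -0.14 and -0.040. Without a litter term, or on leaving out any 1 litter, 0 probe sets passed in limma, these markers and Ercc1 included. The part of cell makeup in the differences of lysosome and autophagy genes was not tested.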

How the data were processed

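Per the labels' protocols, LSK cells were sorted into lysis buffer and their RNA went through 2 rounds of linear amplification before hybridisation to an Affymetrix mouse expression array. The deposited values are linear signal intensity values made by the authors with MAS5, per the submitters' processing notes. No source used here gives its version, its scaling target or what set the floor of 30. At that floor on all 6 arrays were 17046 of 45037 probe sets, for which no difference can be seen.

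Probe sets were named by the platform annotation of 2016, and a gene was read only from those with 1 symbol. The fit and the shares of all probe sets also took in probe sets with no symbol or several. The 64 control probe sets were left out of the tests, and the 22519 probe sets with a mean signal at or above the median were tested; all 32 genes were among them. Values were transformed as log2(signal + 30), which understates the change of weak genes. Tests were made with limma 3.58.1 under R 4.3.3, using lmFit and eBayes (trend = TRUE), with group and litter as terms and two-sided p-values adjusted by Benjamini-Hochberg over all probe sets tested. Arrays of equal number are named as litter mates in the labels, which makes them pairs; over all probe sets tested, litter mates deviated together from their groups' means, with r = 0.77, 0.67 and 0.46 in litters 1, 2 and 3. With litter as a block, the p-values measure the spread of the within-litter differences between these arrays. Whether that is a spread between single mice is not known, since the labels do not say how many mice each array holds. The eBayes step draws the variance of each probe set toward that of probe sets of similar signal. Standard errors were therefore similar for Ctsb, whose litters agreed, and Ctss, whose litters did not, at 0.227 and 0.260.

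The genes and lists were chosen with earlier results of these data known. The text names all 32 genes, up to 4 tested genes with the smallest p and all called genes of each other pathway list, and the 4 markers of highest mean signal in each list; Flt3, Procr, Hlf, Gata2, Slamf1, markers at the floor, E-box genes, Ctsf, Ctsk and Lgmn were named after their values were seen. Alternatives were no litter term, quantile normalization, median centring, other pseudocounts, filters and variance models, averaging all probe sets of a gene, and leaving out each litter. Simulated data had 22519 probe sets and took their litter effects and noise from this comparison. The fit recovered 70% of 2-fold and 100% of 4-fold changes placed in bright probe sets, and 0% of either without the litter term. Litter effects were built into the simulated data, so the 0% cannot decide whether the measured data need that term. Changes in weak probe sets, such as that of Ulk1, were not simulated. The shares recovered therefore do not say how often a change in such genes would be found.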

Additional observations from a re-analysis of the deposited data

How the results depend on the processing

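The count of 0 among the 32 genes was the same under all 12 alternatives, and 0 of 377 single values of these genes passed under any of them; the lowest adjusted p was 0.0776, for Ulk1 with probe sets averaged by gene. With no replicate block, that is no litter term, the count was likewise 0, and 0 probe sets in all were called. Over all probe sets the count of 188 was 332 with median centring (193 higher), 0 with no filter, 114 with no variance trend and 0 to 0 on leaving out each litter in turn. Of the 32 genes 19 kept the sign of their difference under every alternative that could be fitted, among them Ulk1, Map1lc3a, Gabarapl1 and Ctsl, and 13 changed it at least once. The log2 difference of Ulk1 lay between -1.01 and -0.37, with an adjusted p from 0.0776 to 0.9998; its signals fell short of the stricter filter. The median of the autophagy machinery, -0.072, was 0.019 with median centring, -0.024 with the stricter filter and with probe sets averaged by gene, and between -0.18 and -0.061 on leaving out each litter. The log2 differences of Map1lc3a, Gabarapl1 and Ctsl lay between -0.89 and -0.29, -0.66 and -0.37, and -0.63 and -0.39. The median of the hydrolases, 0.030, was 0.095 with quantile normalization, 0.12 with median centring and 0.0075 with the stricter filter. It was 0.11 with probe sets averaged by gene and between 0 and 0.059 on leaving out each litter. Median centring moves the log2 difference of every gene by the same amount, and the stricter filter kept 11 of the 13 hydrolases. The cause of the other shifts was not tested. Hydrolases minus autophagy machinery stayed positive, from 0.079 without litter 1 to 0.24 with a pseudocount of 1. Signals near the floor limit what can be seen for Tfeb, Neu1, Npc1 and the deficient arrays of Ulk1.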
